A study of Arabidopsis thaliana with 3 samples.

Results

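The plastid genome of Arabidopsis encodes, beside the proteins of photosynthesis, a set of genes for its own transcription and translation and for a few other tasks of the organelle. These genes were taken as every gene of the plastid genome whose symbol starts with rpo, rps, rpl, mat, clp, acc, ycf, ccs or cem and that is the only gene named by a probe set of the array. The rule uses names and no measured value, and it gave 32 of the 13363 genes with a name on the array. They comprise genes for 4 subunits of the plastid RNA polymerase, 10 proteins of the small and 9 of the large ribosomal subunit, and 9 genes with other functions. Another 44 plastid genes that were measured encode photosynthesis proteins. For 6 of the 32 genes (rpl2, rpl23, rps7, rps12, ycf1 and ycf2) the probe set names both copies in the inverted repeat of the plastid genome, and these were counted as 1 gene. Copies of plastid DNA elsewhere in the genome could share probes with any of them, and their part in the signals was not tested.

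The series holds 3 samples of 1 kind, replicates 1 to 3, each on 1 Affymetrix ATH1 array. Each sample was RNA from protoplasts (cells freed of their walls) of the quiescent center, or QC, the slowly dividing group of cells at the core of the root stem cell niche. The cells carried GFP under the WOX5 promoter in the Col-0 background, were taken from roots 5 days after stratification, and were collected by fluorescence-activated sorting, so what was sampled is what that promoter and that gate mark. All 3 samples share genotype, age and treatment, and there is no second group. Nothing in the labels tells if they were 3 separate sorts or plants, and p-values accordingly reflect no more than how these samples scattered, possibly for technical reasons.

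Cells of the root meristem hold proplastids, small colourless plastids that give rise to the other plastid types of the root. Plastid genes are read by a polymerase of bacterial type, whose core subunits are plastid-encoded while its sigma factors come from the nucleus, and by a nuclear-encoded polymerase of phage type that serves, among others, the rpoB unit, accD and ycf2. Their messages are translated on bacterial-type ribosomes that are assembled from plastid-encoded and nuclear-encoded proteins. In leaves this machinery is known chiefly for making the photosynthesis proteins, while in roots the plastid also makes fatty acids, amino acids and starch.

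Signal was the deposited MAS5 value, a linear intensity. A signal means little alone, because probes also bind unrelated RNA, so each gene was set against a background level on the same array. For this, 6 genes of pollen, tapetum and shoot meristem or flower (ANX1, ANX2, MGH3, A9, AMS and CLV3) were taken, and the level was set at the 90th percentile of their log2 signals. It lay at 4.56, 5.49 and 5.61 on the log2 scale on replicates 1, 2 and 3. A gene was called above or below it at a Benjamini-Hochberg adjusted p under 0.05 in a two-sided limma test over 13357 genes. Signals of different genes depend on their probes, and so do their distances over background. Where genes are called highest, lowest or farthest below, this orders those values and not the abundance of the transcripts. In such bulk samples, fewer cells with a transcript and less of it per cell cannot be told apart.

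All 32 plastid genes were called above background and none below, where 45.4% of all genes tested were called above and 25.6% below. Each of the 32 also lay above the level on every array, which held for 50.7% of all genes. With the exception of rps14, all lay over 1 log2 above it on every array. The median of log2 signal over background was 5.19 ± 0.35 for the 32 genes (SD of the medians of 3 arrays) and 0.62 ± 0.51 for all genes tested. These are descriptions of a list chosen by name, with no test of the list against other genes. The RNA was amplified before labelling, and how evenly plastid and nuclear messages were amplified was not tested. The level rested partly on AMS, without which the medians were 6.14 and 1.58. Each ± for log2 over background, here and below, takes in the differences between the levels of the 3 arrays. It therefore does not measure how steady a signal was. For accD it was 0.60, while the SD of its log2 signal was 0.031. The limma p-values below are very small partly because limma estimated infinite prior degrees of freedom. For each gene it used the spread that a fitted trend gave at its level, not the gene's own. They mean only that signals lay far from the level compared with that spread, and the error of the level itself is shared by all genes.

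**Figure D1:**
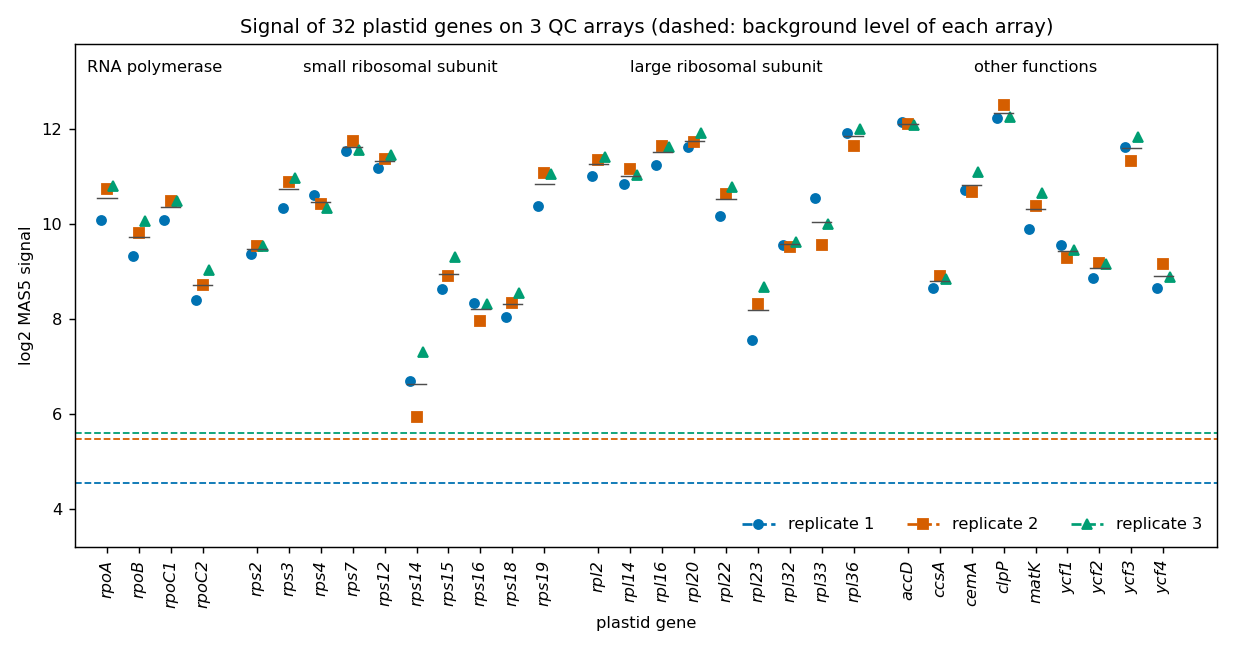
Log2 MAS5 signal of each of the 32 plastid genes (vertical axis) on the 3 QC arrays, grouped by role along the horizontal axis. Points are single arrays, short bars are the mean of 3, and dashed lines are the background level of each array. Points lie well above the lines for all genes but rps14, whose point on replicate 2 lies 0.45 above the line of that array.

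The genes of the 4 core subunits of the plastid-encoded RNA polymerase were all above background. The signal of rpoA, which encodes the alpha subunit on which the enzyme assembles, was 1096, 1709 and 1785 on replicates 1, 2 and 3. For rpoB, the beta subunit, it was 649, 896 and 1069. The beta prime subunit of bacteria is split in plastids into the products of rpoC1 (1090, 1448 and 1434) and rpoC2 (337, 423 and 527). All 4 genes were lowest on replicate 1, and rpoC1 alone was highest on replicate 2, the others on replicate 3. Log2 signal over background was 5.33 ± 0.19 (SD, n = 3) for rpoA with a limma adjusted p of 3.25e-28. It was 4.52 ± 0.24 for rpoB and 5.14 ± 0.35 for rpoC1. The lowest value in this set was that of rpoC2, 3.50 ± 0.31, at a limma adjusted p of 5.57e-19.

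The 10 measured genes of the small ribosomal subunit, which reads the message, included some with steady signals and the most variable one of the 32. The signal of rps2 was 667, 747 and 745 on replicates 1, 2 and 3, a spread of 1.12-fold between the highest and the lowest array, and lay 4.27 ± 0.48 log2 over background. For rps14 it was 103, 61.2 and 158, a spread of 2.59-fold, the widest of all 32 genes. Of the 32, rps14 was also the gene nearest to background, at 2.13, 0.45 and 1.69 log2 above the level on the 3 arrays, with a mean of 1.42 ± 0.87 and a limma adjusted p of 0.00267. Its call was kept without replicate 1 and without replicate 2, but not without replicate 3 or with a raised level. Without replicate 3 the mean was 1.29 at a limma adjusted p of 0.102, and with the level raised by 1 log2 it was 0.42 at 0.384.

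Of the other small-subunit genes, rps7 (2989, 3470.5 and 3054) and rps12 (2319, 2674 and 2804) lay farthest above background, at 6.41 ± 0.52 and 6.12 ± 0.43 log2. The product of rps7 organises the head of the subunit in bacteria, and that of rps12 lies at the decoding center. The rps12 message is joined from separate transcripts by trans-splicing. It was measured by 2 probe sets, whose log2 signals were 11.23, 11.43 and 11.60 on the 3 arrays for one and 11.13, 11.34 and 11.30 for the other, so both were lowest on replicate 1. The signal of rps3 was 1295, 1912 and 2012. That of rps19 was 1333, 2168 and 2143. These 2 genes lie on either side of rpl22 in the rpl23 unit, and in both the signal of replicate 1 lay below those of the other arrays, which were close together. The order was otherwise for rps4, whose product in bacteria is among the first to bind the ribosomal RNA, with 1574, 1377 and 1298, and for rps16, with 325, 250 and 322, both highest on replicate 1. The lower-signal genes rps15 (398, 481 and 634) and rps18 (263, 324 and 378) were lowest on replicate 1 and highest on replicate 3. The last 6 genes (rps3, rps19, rps4, rps16, rps15 and rps18) were above background, from 2.99 ± 0.70 for rps16 to 5.62 ± 0.19 for rps19, with limma adjusted p-values of at most 2.36e-14.

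The large ribosomal subunit forms the peptide bond, and its 9 measured genes were above background by a median of 5.80 ± 0.45 log2. Its members rpl36 (3870, 3207 and 4125 on replicates 1, 2 and 3) and rpl20 (3153, 3388 and 3891) lay farthest above the level, at 6.64 ± 0.64 and 6.54 ± 0.46. Signals of rpl16 were 2452, 3230 and 3159, those of rpl2, a protein at the peptide-forming center, 2080, 2631 and 2738, and those of rpl14 1855, 2289 and 2102. In all 3 of these genes replicate 1 was the lowest array and the others differed by less from each other than from it. For rpl22 the values were 1161, 1596 and 1755. Over background these 4 genes lay between 5.31 ± 0.27 for rpl22 and 6.29 ± 0.36 for rpl16.

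The remaining large-subunit genes differed in how they varied. The signal of rpl32 hardly moved, with 759, 737 and 795, a spread of 1.08-fold, at 4.36 ± 0.57 log2 over background. That of rpl33 was 1506, 762 and 1028, highest on replicate 1 and 1.98-fold above its lowest array, so the array that was lowest for most of the 32 genes was its highest. It lay 4.83 ± 1.03 over background, with values of 6.00, 4.09 and 4.39 on the 3 arrays. The signal of rpl23 was 190, 318 and 413, a spread of 2.17-fold and one of the 2 spreads over 2-fold among the 32 genes. It was still above background by 2.97 ± 0.13 log2, at a limma adjusted p of 3.68e-14, the lowest value of this subunit. Relative to the array's own background level the 3 arrays gave rpl23 nearly one value, 3.01, 2.82 and 3.08, since the level was lowest on the same array as the signal.

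The 9 genes with other functions held both the highest value over background and the steadiest signal of the 32. The protease subunit gene clpP, part of the plastid Clp protease that removes unwanted proteins, gave 4841, 5888 and 4904 on replicates 1, 2 and 3, or 7.12 ± 0.52 log2 over background at a limma adjusted p of 3.19e-24. Signals of accD were 4532, 4452 and 4340, within 1.04-fold of each other, at 6.90 ± 0.60. Its product is the beta subunit of the carboxyltransferase of acetyl-CoA carboxylase, which commits carbon to fatty acid synthesis in the plastid. The SD of its log2 signal between arrays was 0.031, against a median of 0.23 over the 32 genes.

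Splicing and protein import were represented by 3 genes. The maturase gene matK, whose product helps to splice group II introns, gave 959, 1347 and 1626, lowest on replicate 1, and 5.10 ± 0.22 log2 over background. The signal of ycf1, which encodes a large protein assigned to the import channel of the inner envelope, was 754, 629 and 707, at 4.22 ± 0.68. For ycf2, assigned to a motor complex that pulls proteins in, it was 468, 586 and 577, at 3.86 ± 0.40. Thus ycf1 was highest and ycf2 lowest on replicate 1, and all 3 genes were called above background by limma with adjusted p-values of at most 5.32e-22.

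The last 4 genes serve the photosynthetic membrane or the envelope. The photosystem I assembly factor ycf3 gave 3149, 2596 and 3653 on the 3 arrays and lay 6.38 ± 0.62 log2 over background. The other assembly factor, ycf4, gave 401, 575 and 476 and lay 3.68 ± 0.40 over it. The signal of ccsA, which acts in attaching heme to c-type cytochromes, was 403, 483 and 464, at 3.59 ± 0.45. For cemA, which encodes a protein of the inner envelope membrane, it was 1695, 1641 and 2200, at 5.62 ± 0.50. All 4 were called above background by limma with adjusted p-values of at most 9.28e-20, with ycf3 and cemA lowest on replicate 2 and highest on replicate 3, and ycf4 and ccsA lowest on replicate 1 and highest on replicate 2.

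**Figure D2:**
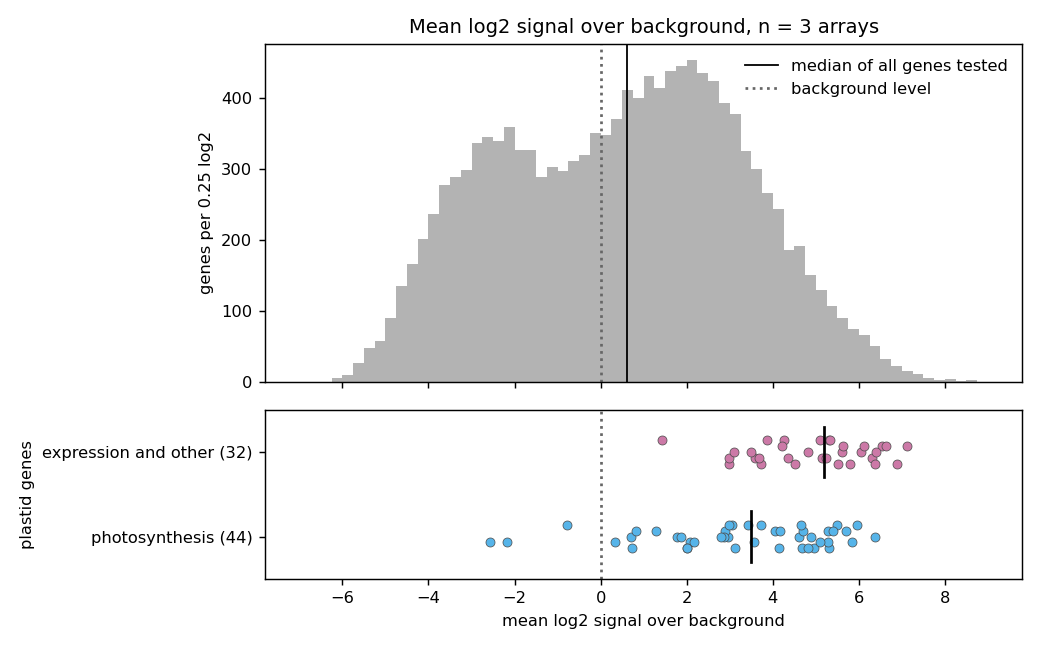
Mean log2 signal over background (horizontal axis, 3 arrays). The upper panel is the histogram of all genes tested in bins of 0.25 log2, and the lower panel has 1 point for each of the 32 plastid genes of expression and other functions and the 44 of photosynthesis, with bars at their medians of 5.19 and 3.49 and a vertical scatter that carries no value. All 32 points lie right of 0, the background level, while 3 photosynthesis points lie left of it.

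The plastid genes of photosynthesis, measured the same way, were 37 above background, 2 below and 5 not called of 44, with a median of 3.49 ± 0.47 log2 over background, against 32 of 32 and 5.19 ± 0.35. The difference between these lists was not tested. Among all genes tested, 45.4% were called above and 25.6% below. By class, 4 of 5 photosystem I (psa) genes, 12 of 15 photosystem II (psb), 5 of 6 cytochrome b6f (pet), 6 of 6 ATP synthase (atp) and 9 of 11 NADH dehydrogenase-like (ndh) genes were above, as was rbcL, the large subunit of the carbon-fixing enzyme Rubisco. The farthest above were atpE at 6.36 ± 0.53 and psaB at 5.96 ± 0.41. The farthest below were ndhF at -2.58 ± 2.64, with signals of 8.04, 0.94 and 32, and psbT at -2.19 ± 1.05, at limma adjusted p-values of 0.0126 and 0.0269. Without replicate 2 none was called below, and without replicate 3 it was 1. No gene of the polymerase, the ribosome or the other functions lay in that range.

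Plastid genes are mostly transcribed together in units of several genes, and 8 of the 32 were listed here in units with photosynthesis genes. This list leaves out rpl33 and rps18, which follow psaJ on the plastid genome. Also left out, among others, are accD and ycf3, which lie next to psaI and psaA in gene order. They lay at 6.90 ± 0.60 and 6.38 ± 0.62 log2 over background. The 8 listed genes had a median of 4.00 ± 0.36 log2 over background, a value that depends on this listing. The listing counts rps12 as a whole, although its first exon lies with rpl20 and clpP. The gene nearest to background, rps14, is read with psaA and psaB, core proteins of photosystem I. Those partners gave 564, 567 and 737 (4.05 ± 0.47) and 1969, 2734 and 2336 (5.96 ± 0.41), so probe sets of one unit differed widely in how far they lay over background. Likewise ndhB, the partner of rps7 and of the last exons of rps12, lay at 1.77 ± 0.53. The partners of rps2 (atpI, 4.14 ± 0.29), of ycf4 and cemA (psaI, 5.28 ± 0.29, and petA, 4.60 ± 0.37), of rps15 (ndhH, 2.88 ± 0.15) and of ccsA (ndhD, 3.05 ± 0.29) were also above background. The 8 partners named here had their lowest signal on replicate 1, as had 26 of all 44 photosynthesis genes. In the same stretches atpA, atpF, psaC, ndhE, ndhG and ndhI were lowest on replicate 1 too. By contrast, atpH was lowest on replicate 3 and ndhA on replicate 2.

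Among the other units, the 9 measured genes of the rpl23 unit, in plastid order rpoA, rpl36, rpl14, rpl16, rps3, rpl22, rps19, rpl2 and rpl23, had a median of 5.62 ± 0.20. This small ± does not mean steady signals, since the median SD of their log2 signals was 0.31. The 3 genes of the rpoB unit had a median of 4.52 ± 0.24. The 5 genes known as read chiefly by the nuclear-encoded polymerase (rpoB, rpoC1, rpoC2, accD and ycf2) also had a median of 4.52 ± 0.24, since the middle value was the same gene, rpoB. The 7 genes with an intron had a median of 6.12 ± 0.44 and the 25 without one 4.83 ± 0.56, where probes differ too and the difference was not tested. The probes were not mapped to exons, so spliced and unspliced messages cannot be told apart.

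Across arrays, replicate 1 gave the lowest signal for 22 of the 32, where this was so for 36.7% of all genes tested and for 34.6% of the genes called above background. Replicate 2 was lowest for 8 genes and replicate 3 for 2. The highest signal fell on replicate 3 for 17 of the 32, against 34.1% of all genes. The median difference of replicate 1 from the mean of the other arrays was -0.24 log2 over the 32 genes, -0.04 over all genes tested and -0.01 over genes called above background. For the plastid photosynthesis genes the counts were 26 of 44 and -0.14, and for the nuclear genes of plastid function described below 7 of 27 and -0.10. With 1 array per sample, no difference between arrays can be tested.

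This pattern was uneven along the plastid genome. In the rpl23 unit 8 of 9 genes were lowest on replicate 1, by a median of -0.53, with rpl36 the exception at 0.09. In the rpoB unit it was 3 of 3, with -0.40 for rpoC1, -0.49 for rpoC2 and -0.59 for rpoB. Another 12 genes were listed in neither of these nor with photosynthesis genes, with rpl33, rps18, accD and ycf3 among them. Of these 12, 5 were lowest on replicate 1, and the median difference of the 12 was 0.01. Single differences ran from -0.93 for rpl23, -0.69 for rps19 and -0.67 for rpoA to 0.24 for rps4 and 0.77 for rpl33. Neighbours did not always share them, since rpl33 and rps18, which are transcribed together, lay at 0.77 and -0.41.

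**Figure D3:**
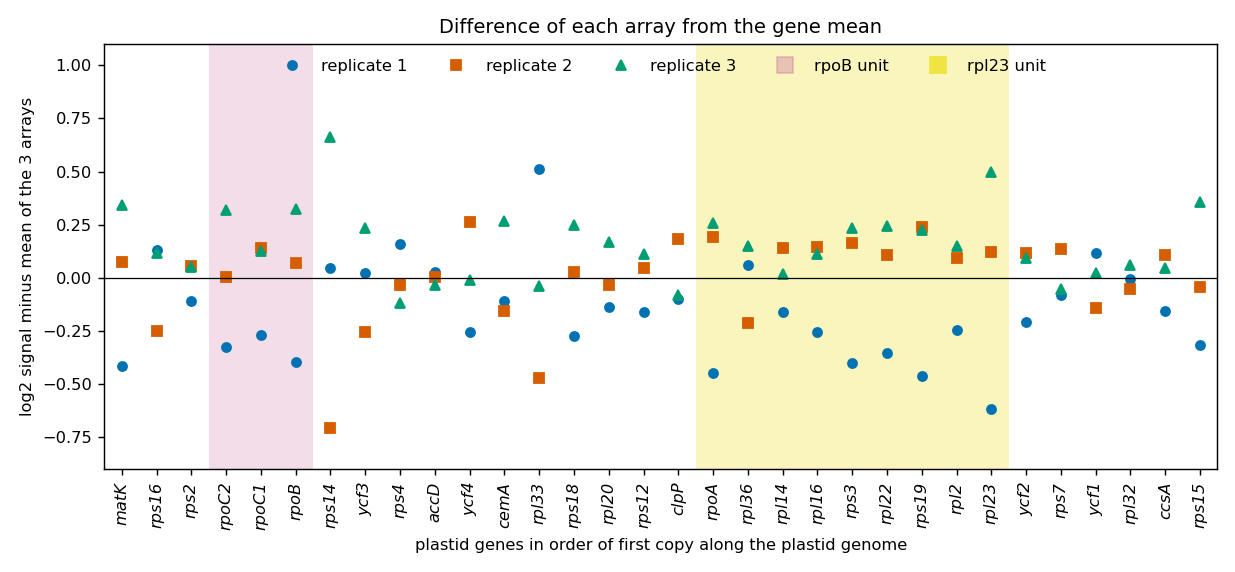
Log2 signal of each array minus the gene's mean over the 3 arrays (vertical axis) for the 32 plastid genes in order of their first copy along the plastid genome (horizontal axis), with the rpoB and rpl23 units shaded. Circles for replicate 1 lie lowest in 3 of 3 genes of the rpoB unit and 8 of 9 of the rpl23 unit, while they lie highest for rpl33.

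Another array scaling changed the counts of the 32 genes by at most 2, and changed other values more. After quantile normalization 22 of 32 genes were lowest on replicate 1, by a median of -0.26, against 32.6% of all genes and 33.6% of those above background. After centring each array on its median it was 20 of 32 and -0.16, against 31.7% and 26.6%, so the size of the median difference fell by over 1.5 times. The photosynthesis genes then fell to 17 of 44 and -0.055, while the rpl23 and rpoB units stayed at 8 of 9 and 3 of 3, by -0.44 and -0.40. The median difference of the 12 genes outside the units was -0.014 after quantile normalization and 0.09 after centring, and that of the nuclear genes 0.073 and -0.016, so neither has a settled sign. Without probe sets marked as binding several transcripts, 18 of the 27 genes that were left were lowest on replicate 1, by -0.24, against 36.6% and 34.5%. The median signal over all probe sets was 76.9, 81.4 and 81.3 on replicates 1, 2 and 3, so replicate 1 was also the lowest array in that measure, and its background level was the lowest. The part of these array-wide values in the pattern was not tested beyond the scalings above.

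The spread between arrays was small for most of the 32 genes. Signals of 30 of the 32 lay within 2-fold on all arrays, against 56.7% of all genes tested and 93.2% of the genes called above background, so the share is near that of other genes with signal. The exceptions were rps14 and rpl23. The median SD of log2 signal was 0.23 for the 32 genes, 0.23 for genes called above background and 0.42 for all genes. By role it was 0.34 for the polymerase subunits, 0.24 for the small and 0.21 for the large ribosomal subunit and 0.18 for the other functions. Over the 12 genes outside the named units it was 0.17, and over the rpl23 unit 0.31.

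**Figure D4:**
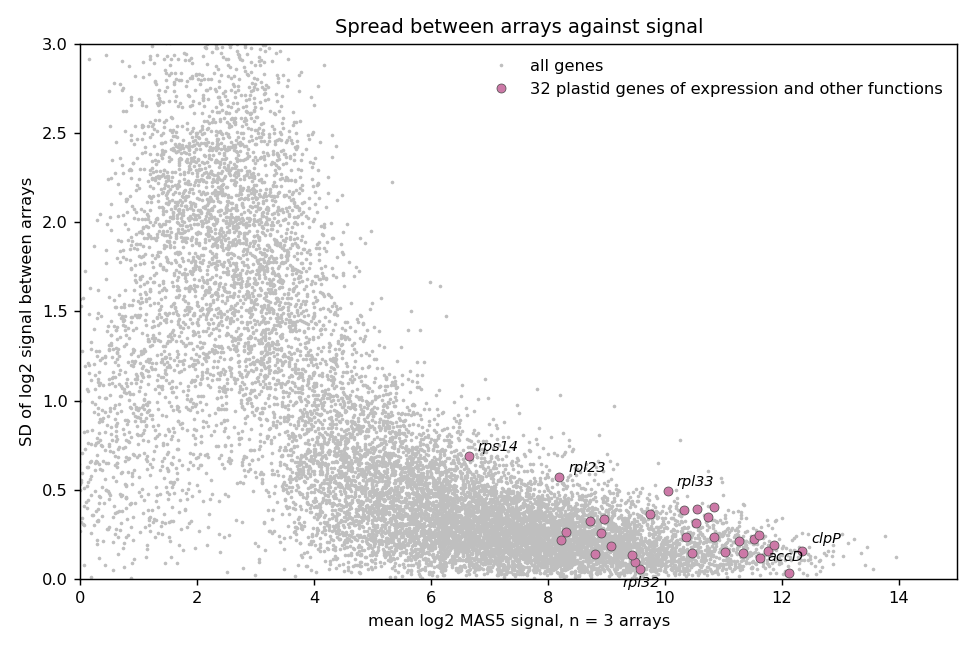
SD of log2 signal between the 3 arrays (vertical axis) against mean log2 signal (horizontal axis) for the named genes in grey and the 32 plastid genes in colour. The axes leave out 172 genes, the 13191 plotted include all 32, and rps14 and rpl23 are the highest coloured points while accD and rpl32 are the lowest.

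Most plastid proteins come from the nucleus, and 134 nuclear genes of the same processes were listed by locus. By name, 27 of them were matched as the sole gene of a probe set, and the others were not analysed here, since many probe sets had no gene named. Of the 27, 17 were above background, none below and 10 not called, with a median of 1.74 ± 0.41 log2. By count this is 17 of 27 beside the 45.4% of all genes. All 6 measured partners of clpP in the Clp protease were above, by a median of 2.50. The highest were AT1G09130 with signals of 505, 542 and 326 (3.58 ± 0.84) and CLPP4, a further catalytic subunit of the protease, with 428, 369 and 418 (3.44 ± 0.64). The lowest were AT4G12060 at 2.22 ± 1.01 and AT1G68660 at 1.81 ± 0.22.

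Among the 41 listed genes of nuclear-encoded plastid ribosomal proteins, 10 were measured. Of these 5 were above background and none below, with a median of 1.49. The values ran from 3.85 ± 0.57 for AT5G24490 and 3.35 ± 0.67 for AT3G54210 to 0.03 ± 0.75 for AT1G64510 and -0.05 ± 0.82 for AT5G65220, the last 2 not called. The 5 of 10 above is near the 45.4% of all genes, and the count was 7 without AMS and 9 against bacterial controls.

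Beside 45.4% of all genes tested, 5 of the 6 measured genes for splicing and processing of plastid RNA, of 16 listed, were above background. They included CAF1 (117, 152 and 111, or 1.75 ± 0.56) and CFM3A (1.74 ± 0.79), which act in the splicing of group II introns, and OTP70 (1.04 ± 0.76, at a limma adjusted p of 0.0419), while AT5G16140 at -0.60 ± 0.91 was not called. Without replicate 2 the count above was 3, and with the level raised by 1 log2 it was 0. Of the partners of ycf3, ycf4 and ccsA 3 of 7 were measured and none was called, with CcdA, a thylakoid protein that passes on reducing power, at 0.55 ± 0.71, AT1G22700 at -0.48 ± 0.30 and AT1G49380 at -1.17 ± 1.91. Of 20 import genes only MDH, the plastid NAD-dependent malate dehydrogenase, was measured, at 3.03 ± 0.76 and above background. Of 28 genes for plastid transcription only AT5G15700 was measured, with signals of 1.32, 41.1 and 22.8, or -1.80 ± 2.10, and was not called at a limma adjusted p of 0.0554. None of the 7 nuclear partners of accD was matched by name, so the other subunits of that enzyme are not described here.

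The label of the cells was set against markers. Of 7 QC markers 3 were measured, BBM, JKD and AGL42, while WOX5 itself was not analysed here. All 3 were above background, by 3.77, 1.57 and 1.14 log2, beside 45.4% of all genes tested. For AGL42 the limma adjusted p was 0.0239. Of 5 columella and root cap markers only ACR4, named CR4 on the array, was measured and was above, by 1.91, farther than JKD and AGL42. With so few measured, these markers cannot settle the cell type. Of 8 markers of green leaf cells 3 were measured, and their summed signal was 147, 167 and 234 on replicates 1, 2 and 3. One of them, PRK, the phosphoribulokinase of carbon fixation, was above background at 1.03 (limma adjusted p of 0.046). The light-harvesting gene LHCB4.1 at 0.93 and the Rubisco activase RCA at -0.33 were not called. No value from green tissue is part of the series, so how these plastid signals compare with those of leaf cells was not tested.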

How the data were processed

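RNA from 3 samples of sorted QC protoplasts was extracted with DNase treatment, amplified and biotin-labelled, and hybridised to 1-colour ATH1 arrays. The authors deposited 1 linear intensity per probe set and array, the MAS5 signal. The mean after leaving out 2% of values at each end was 250 on each array, so a change in total RNA cannot be seen. For the version of MAS5 and its detection calls, no source used here gives details. All signals were above 0, and log2 was taken without adding a constant. Probe sets were named from GEO's platform annotation, and names were brought up to date with RefSeq (TAIR10.1, names and gene order only): of 22810 probe sets 13521 named 1 gene, of which 13444 matched, 495 named several, 8730 had none named and 64 were controls. Where a gene had several probe sets, their log2 signals were averaged. No values were identical between arrays.

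For each of 13357 genes (the 6 panel genes left out), limma 3.58.1 in R 4.3.3 fitted the mean of log2 signal less the array's background level and tested it two-sided against 0, using eBayes with a variance trend, and p-values were adjusted over all these genes by Benjamini-Hochberg (threshold 0.05). limma estimated infinite prior degrees of freedom, which means that the spread used for a gene was that of the trend alone. The step was tested on simulated data with independent noise for each gene. No error of the background level and no shift shared by an array was simulated, so the test does not cover these. The genes, lists, panel and alternatives were chosen with earlier results of these data known. The text names all 32 genes, the 2 highest and 2 lowest measured genes of each other list (all of a list of 4 or fewer), and, chosen as partners in transcription units, 8 photosynthesis genes. Further photosynthesis genes are named outside that rule: rbcL, psaJ and genes in the stretches of those partners. A role and a name are given only where the annotation names the gene. Lists of mitochondrion-encoded genes matched no probe set by locus tag and were not analysed here. Array numbers limit the precision.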

Additional observations from a re-analysis of the deposited data

How the results depend on the processing

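Under 18 alternatives, 569 of 571 pairs of a plastid gene and an alternative stayed above background and past the threshold, the 2 exceptions being rps14 without replicate 3 and with the level raised by 1 log2. The median over the 32 genes was 6.10 at the 75th and 4.78 at the 95th percentile of the panel, 6.19 against bacterial controls, 6.14 without AMS, 5.60 against pseudogenes, 4.62 with an offset of 16 and 4.19 with the level raised by 1 log2. Over all genes tested it was 1.53 at the 75th percentile, 1.62 against bacterial controls, 1.58 without AMS, 1.35 against pseudogenes, 2.22 with only genes of a mean log2 signal of at least 5 and -0.38 with the raised level. The count of all genes below background was 1637, 1713 and 1560 at the 75th percentile, with bacterial controls and without AMS, 5217 with the raised level, 0 with the filter (which drops the low genes) and 2228 to 2624 when each replicate was left out. Of the photosynthesis genes, 0 were below with the filter, without AMS, at the 75th percentile and with bacterial controls, 1 with robust variance, and 0 to 2 without each replicate. The nuclear transcription gene AT5G15700 was called below (1 of 1) at the 95th percentile, with the raised level, without variance trend and with the offset. Of the nuclear ribosomal protein genes 9 were above with bacterial controls. Of the partners of ycf3, ycf4 and ccsA, 1 was above against pseudogenes or bacterial controls, at the 75th percentile and without AMS, and 2 were below with the raised level. Of the splicing genes 0 were above and 1 below with the raised level, and 3 to 4 were above without each replicate. Signs turned for genes near the level. At the 75th percentile, with bacterial controls and without AMS, AT1G22700 was 0.43, 0.52 and 0.48, AT5G16140 0.31, 0.40 and 0.36, AT5G65220 0.86, 0.95 and 0.91, and RCA 0.58, 0.67 and 0.63. Against pseudogenes AT5G65220 was 0.37 and RCA 0.085. AT1G64510 was -0.38 at the 95th percentile, -0.97 with the raised level and -0.014 with the offset, and the raised level gave CcdA -0.45 and LHCB4.1 -0.074. When each replicate was left out, AT1G64510 ran from -0.28 to 0.44, AT5G65220 from -0.47 to 0.35 and RCA from -0.86 to 0.092. The cause of these shifts was not tested beyond the choice of level. Median centring cannot move a gene relative to its own array's level and says nothing about stability. No paired analysis was possible because the series has 1 group. Signal near background limits rps14 and those nuclear genes that lay near the level, and 3 arrays limit all.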
